A study of Mus musculus with 13 samples.

Results

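Integrins are cell surface receptors built from an alpha and a beta subunit, and each alpha-beta pair binds its own set of matrix proteins. They anchor cells to collagen, laminin, fibronectin and vitronectin and pass signals from those contacts to the cytoskeleton and to growth pathways. In breast cancer cells they are known for their part in adhesion, migration and invasion. The subunits described here are 7 transcripts, picked by their transcript ID from the 244939 listed for each of 13 tumours, with 1 transcript per subunit. They are ITGB1, ITGB3 and ITGB5 among the beta subunits and ITGA2, ITGA3, ITGA5 and ITGAV among the alpha subunits. All 7 were found, and all 7 passed the filter on low counts. The symbols came with the list of IDs and were not checked against a human annotation, and other transcripts of the same genes were not analysed here.

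Each tumour was a graft of MDA-MB-231, a human cell line from a triple-negative breast cancer, set in Matrigel into a mammary gland of a female NSG mouse aged 12 to 13 weeks. The series labels call the NSG host immunocompetent, although that strain lacks mature lymphocytes. The comparison was between 7 tumours from mice given vehicle by daily gavage (DMSO at 40% and polyethylene glycol at 60%) and 6 from mice given OCA at 30 mg per kg in the same vehicle by daily gavage, with growth given as 14 days. OCA, or obeticholic acid, is a synthetic bile acid and an agonist of FXR, a nuclear receptor, and the series title concerns the effect of such an agonist on the burden of this cancer. The labels give 8 mice treated with vehicle and 7 with OCA, so not every treated mouse is among these tumours. All mice carried the same cell line, so a line-to-line difference cannot be seen. In bulk tumour RNA, fewer cells of a type and less RNA per cell cannot be told apart, and reads from mouse cells were not separated here. Markers of the cell line and of host cells were not analysed here.

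The libraries held 34015674 to 49844746 estimated reads in the vehicle group and 44150968 to 50596490 in the OCA group. Vehicle replicates 2, 3 and 5 were the 3 least deep. Vehicle replicates 1 and 4 and OCA replicate 2 stood apart on the first principal component of all tested transcripts, at scores of 216.5 to 230.7 against -125.9 to -21.34 in the other 10. The label numbers fall into a lower series (4340 to 4351, 3 vehicle and 4 OCA libraries) and an upper series (4371 to 4385, 4 vehicle and 2 OCA). What these numbers record is not given. The 7 transcripts together took 0.306% to 0.462% of a library's reads.

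Levels of the subunits were compared per transcript length, in TPM, which scales each library to the same sum after dividing by length, as deposited. ITGB1 (ENST00000302278.8, 3735 bases), the beta subunit shared by the largest family of integrins, was the most abundant at 369 ± 57.1 TPM (SD, n = 13). ITGA3 (ENST00000320031.13, 4889 bases), which forms a laminin receptor with it, followed at 327 ± 72.3 TPM. ITGA5 (ENST00000293379.9, 4250 bases), the alpha chain of the classical fibronectin receptor, stood at 105 ± 22.9 TPM. The collagen-binding subunit ITGA2 (ENST00000296585.10, 7843 bases) stood at 47.9 ± 8.97 TPM. ITGB5 (ENST00000296181.9, 4440 bases), which pairs with ITGAV, stood at 32.9 ± 10.8 TPM. ITGAV itself (ENST00000261023.8, 7039 bases), the alpha chain common to receptors of vitronectin and other RGD-containing ligands, measured 15.1 ± 2.81 TPM. ITGB3 (ENST00000559488.7, 5941 bases), also a partner of ITGAV, was the least abundant at 9.38 ± 6.01 TPM. ITGB1 and ITGA3 made up 76.8% ± 1.87 of the summed TPM of the 7, and ITGB1 made up 89.8% ± 2.04 of that of the 3 beta subunits (SD, n = 13).

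The steps from ITGA3 to ITGA5, from ITGA5 to ITGA2 and from ITGB5 to ITGAV had the same sign in all 13 libraries. The other neighbours overlapped. ITGB1 was above ITGA3 in 10 of 13 libraries, with a log2 ratio in TPM of 0.19 ± 0.21 (SD), and ITGA3 was the higher in vehicle replicate 6 and OCA replicates 1 and 6. ITGA2 was above ITGB5 in 12 libraries, the exception being vehicle replicate 1. ITGAV was above ITGB3 in 11, the exceptions being vehicle replicate 7 and OCA replicate 6. By mean TPM over all 244939 transcripts, ITGB1 ranked 272 and ITGA3 ranked 305, while ITGAV ranked 8264 and ITGB3 ranked 12462.

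**Figure D1:**
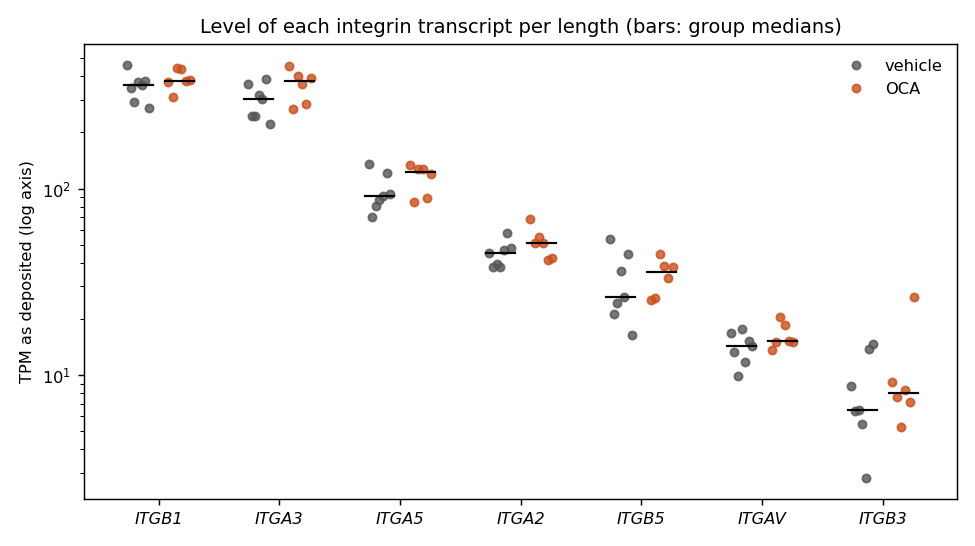
TPM of each integrin transcript on a log axis, in order of mean level, with points for the 7 vehicle and 6 OCA libraries and bars for the group medians. ITGB1 and ITGA3 sit together at the top, while ITGB3 is lowest and spreads from 2.80 to 26.2 TPM.

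In the comparison of OCA with vehicle, none of the 7 integrin transcripts passed the test by edgeR's quasi-likelihood fit over all transcripts, and each had an adjusted p of 1. The fold changes lay between 1.05 for ITGB5 and 1.25 for ITGB3, and the 95% interval of each included no change. At a limit of 0.05, 0 of the 74973 transcripts in the fit (0.0%) passed by adjusted p and 2078 (2.77%) by unadjusted p, and 0 of the 7 integrins passed by either. DESeq2 without a filter on low counts called 410 transcripts (0.256%), also with 0 of the 7 among them. The 2 groups overlapped for all 7 integrins, and did not overlap for 92 of the tested transcripts (0.123%). All 7 estimates were above 0, with a median log2 fold change of 0.17. Among all 14710 transcripts averaging 10 CPM or more, 45.0% were above 0 and the median was -0.02. Among those of similar length, 48.8% (for ITGB1) to 74.6% (for ITGAV and ITGA2) were above 0. The shared direction is a description only, and the signs of ITGB3 and ITGB5 turned when single libraries were left out.

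Beta subunits are given first, in CPM, the TMM-scaled count relative to library size. ITGB1 ranged in vehicle tumours from 945 to 1631 CPM with a median of 1333, and in OCA tumours from 1096 to 1547 with a median of 1345. The OCA tumours lay wholly within the vehicle range, and the group means were 1361 ± 162 (SD, n = 6) and 1284 ± 225 CPM (SD, n = 7). The log2 fold change was 0.08 (SE 0.12, 95% interval -0.17 to 0.34). In linear terms that interval runs from 0.887-fold to 1.27-fold, the narrowest of the 7.

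ITGB5 ran from 68.6 to 227 CPM in vehicle tumours (median 116) and from 109 to 184 CPM in OCA tumours (median 151). Both the lowest and the highest tumour, replicates 7 and 1, were in the vehicle group, and every OCA value lay between them. The means were 145 ± 30.4 CPM with OCA and 138 ± 58.6 CPM with vehicle, a log2 fold change of 0.06 (SE 0.26, 95% interval -0.49 to 0.62). Its sign turned without vehicle replicate 2 (-0.02), without vehicle replicate 7 (-0.06) and without OCA replicate 3 (-0.01).

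ITGB3, which in platelets pairs with another alpha chain and in tumour cells with ITGAV, was the most variable of the 7. Its vehicle values ran from 16.8 to 83.9 CPM (median 39.2) and its OCA values from 29.3 to 151.6 CPM (median 46.2). OCA replicate 6 alone held 151.6 CPM, against at most 53.4 CPM in the other OCA tumours, and among vehicle tumours replicates 6 and 7 were high at 83.9 and 83.4 CPM. The group means were 61.3 ± 45.0 CPM with OCA and 49.0 ± 25.6 CPM with vehicle, and the log2 fold change was 0.32 (SE 0.43, 95% interval -0.60 to 1.24). Without OCA replicate 6 the OCA mean was 43.2 ± 9.03 CPM (SD, n = 5) and the log2 fold change -0.18 (SE 0.34, edgeR adjusted p = 1). Leaving out OCA replicate 6 thus turned the sign of the ITGB3 estimate, as did leaving out vehicle replicates 2, 3 and 5 together (-0.02). The 13 libraries held 572 to 6629 estimated reads on ITGB3.

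Among the alpha chains, ITGA3 ranged from 1037 to 1925 CPM in vehicle tumours (median 1492) and from 1253 to 2174 CPM in OCA tumours (median 1767). Its highest value was OCA replicate 1, and 4 of 6 OCA tumours were above the vehicle mean. Means of 1689 ± 343 CPM with OCA and 1438 ± 320 CPM with vehicle gave a log2 fold change of 0.23 (SE 0.16, 95% interval -0.12 to 0.58). ITGA3 had the smallest unadjusted p of the 7, 0.176 by edgeR (adjusted p = 1), and ranked 9127 by p among the 74973 transcripts tested.

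ITGA5 measured 290 to 552 CPM in vehicle tumours (median 376) and 345 to 547 CPM in OCA tumours (median 493). Its values left a gap, with 7 libraries from 290 to 385 CPM and 6 from 488 to 552 CPM, and both groups had tumours on either side of it. The means were 459 ± 84.7 CPM with OCA and 404 ± 96.4 CPM with vehicle, a log2 fold change of 0.19 (SE 0.16, 95% interval -0.17 to 0.54).

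ITGA2 measured 297 to 470 CPM in vehicle tumours (median 349) and 317 to 539 CPM in OCA tumours (median 392). OCA replicate 1 and vehicle replicate 6 were the highest tumours of their groups. The log2 fold change was 0.17 (SE 0.14, 95% interval -0.13 to 0.46), from means of 397 ± 79.7 CPM with OCA and 353 ± 60.3 CPM with vehicle. Without OCA replicate 1 it was 0.07.

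ITGAV measured 71.3 to 124 CPM in vehicle tumours (median 97.5) and 95.1 to 137 CPM in OCA tumours (median 104). OCA replicates 3 and 4 lay above every vehicle tumour, and vehicle replicates 2, 3 and 5 were the 3 lowest of all 13. The means were 112 ± 16.4 CPM with OCA and 99.3 ± 18.4 CPM with vehicle, a log2 fold change of 0.17 (SE 0.13, 95% interval -0.11 to 0.45). Those 3 vehicle tumours were also the least deep libraries. Without them the vehicle mean was 112 ± 10.8 CPM (SD, n = 4) and the log2 fold change 0.00 (SE 0.12, edgeR adjusted p = 1).

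**Figure D2:**
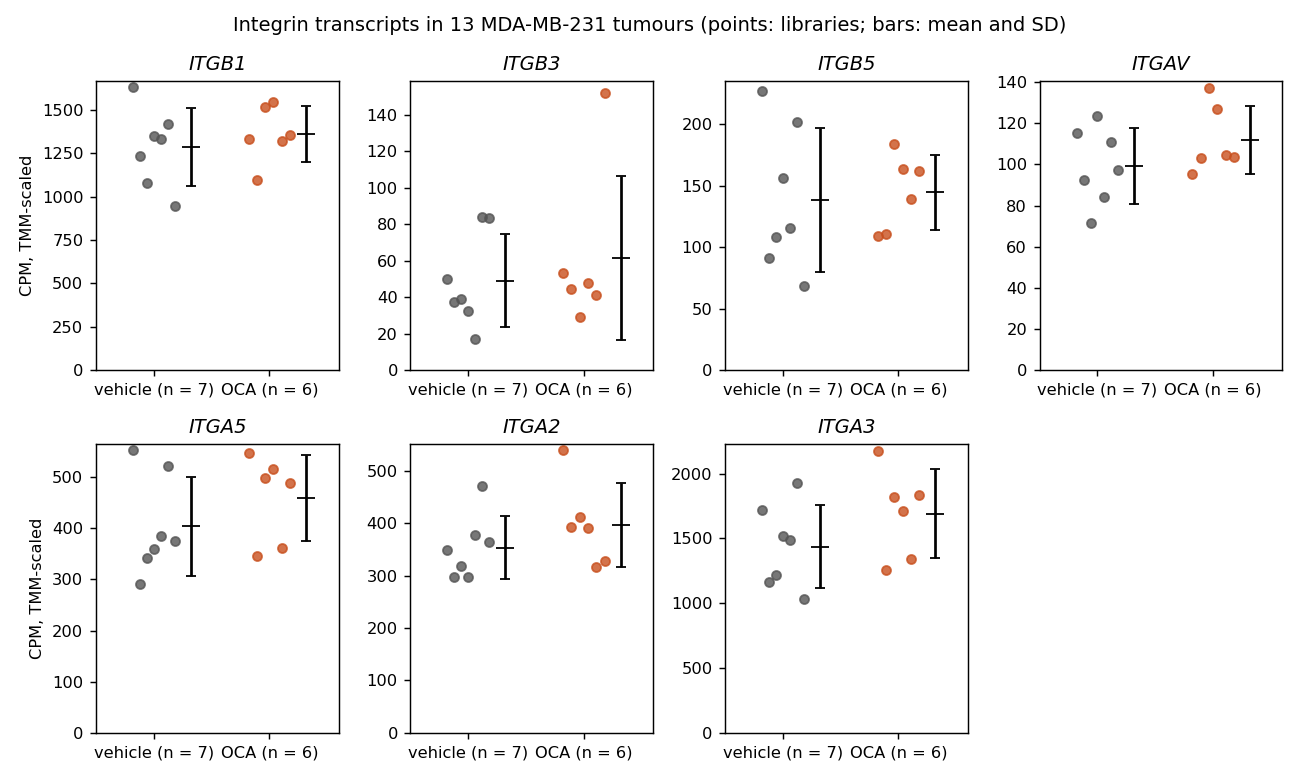
CPM of each integrin transcript in every library (points), with the mean and SD of each group beside them, for 7 vehicle and 6 OCA tumours. The groups overlap in every panel, and OCA replicate 6 stands alone at 151.6 CPM for ITGB3.

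The depth of the libraries moved with ITGAV. Over the 13 libraries its log2 CPM correlated with total reads at r = 0.74 (Spearman rho 0.69, permutation p = 0.00361 and 0.0112, adjusted p = 0.0253 for r over 7 relations). Without the 2 libraries farthest from the median depth r was 0.77, and without vehicle replicates 2, 3 and 5 it was 0.38. For the other 6 integrins r lay between 0.30 for ITGB1 and 0.51 for ITGA5, with adjusted permutation p values of 0.234 to 0.321. Without the same 3 libraries r was -0.72 for ITGB3 and -0.12 for ITGA5, 0.017 for both ITGA2 and ITGA3, 0.27 for ITGB1 and 0.30 for ITGB5. Vehicle replicates 2, 3 and 5 are all in the upper label series, so depth and series cannot be told apart for them. The part of either in the ITGAV difference was not tested. Leaving out the same 3 libraries turned ITGB5 to -0.17 and ITGB3 to -0.02, and took the log2 fold change of ITGA5 from 0.19 to 0.03, of ITGA3 from 0.23 to 0.13, of ITGA2 from 0.17 to 0.11 and of ITGB1 from 0.08 to 0.03.

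Leaving out vehicle replicates 1 and 4 and OCA replicate 2, the libraries apart on the first component, gave larger estimates for 5 of the 7. The log2 fold change was then 0.24 for ITGB1, 0.37 for ITGB5, 0.31 for ITGAV, 0.33 for ITGA5 and 0.38 for ITGA3, with 0.12 for ITGA2 and 0.31 for ITGB3. ITGAV then had an unadjusted edgeR p of 0.0473, and the adjusted p of all 7 was 1. OCA replicate 2 had the lowest ITGB1, ITGA5 and ITGA3 of its group, and vehicle replicate 1 had the highest ITGB1, ITGB5 and ITGA5 of the 7 vehicle tumours.

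Within the lower label series the log2 fold changes were 0.21 for ITGB1, 0.07 for ITGB5, 0.07 for ITGAV, 0.20 for ITGA5, 0.14 for ITGA2 and 0.24 for ITGA3. Within the upper series they were -0.11, 0.01, 0.19, 0.09, 0.10 and 0.15 in the same order. ITGB3 differed most between the series, at -0.63 (SE 0.47) in the lower and 1.45 (SE 0.52) in the upper. In the lower series ITGB3 averaged 42.9 ± 10.4 CPM with OCA (SD, n = 4) and 66.5 ± 29.7 CPM with vehicle (SD, n = 3). The upper series held 2 OCA tumours, at 44.3 and 151.6 CPM, and a vehicle mean of 35.9 ± 13.9 CPM (SD, n = 4). The difference between the series was 2.08 (SE 0.71, unadjusted p = 0.0133, edgeR adjusted p = 1) and did not pass the adjusted threshold.

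Transcript length moved with the fold change in these files. Of the 7 integrin transcripts, 6 are 4000 bases or longer, and ITGB1 has 3735 bases. Among tested transcripts averaging 10 CPM or more and at least 4000 bases, the median log2 fold change was 0.05, and 62.1% of them were above 0. In 10 classes of equal size by length, the class of ITGAV (7039 bases) and ITGA2 (7843 bases) had a median of 0.09. Above that median ITGAV lay by 0.08 and ITGA2 by 0.07. The class of ITGB5 (4440 bases), ITGA5 (4250 bases) and ITGA3 (4889 bases) had a median of 0.02, and those of ITGB3 (5941 bases) and ITGB1 had 0.04 and -0.00. ITGA3 lay 0.21 and ITGA5 0.17 above the median of their class, ITGB5 0.05, ITGB1 0.09 and ITGB3 0.28. The part of length in these differences was not tested.

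**Figure D3:**
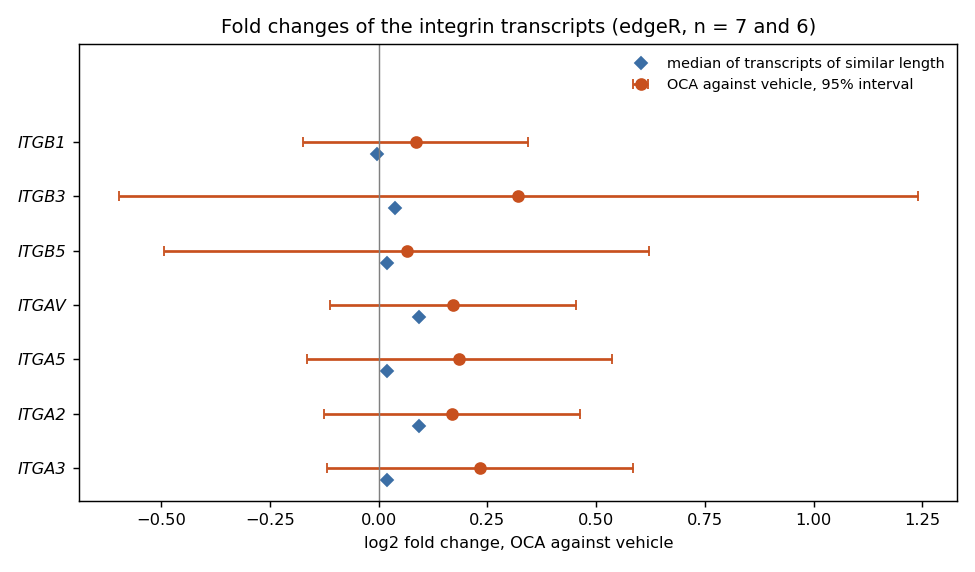
Log2 fold change of each integrin transcript, OCA against vehicle, with its 95% interval (circles and bars), and the median log2 fold change of transcripts in the same class of length (diamonds). Every interval spans 0, and the one of ITGB3, -0.60 to 1.24, is the widest.

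Variation between tumours differed among the subunits. The biological coefficient of variation fitted by edgeR was 16.8% for ITGB1, 18.6% for ITGAV, 18.8% for ITGA2, 21.6% for ITGA3 and 21.7% for ITGA5. The median over transcripts averaging 10 CPM or more was 20.9%. ITGA3 and ITGA5 lay just above it, with 53.7% and 54.3% of those transcripts at a lower value. ITGB5 at 33.1% and ITGB3 at 52.8% lay further above, with 86.5% and 95.9% of them lower. From the lowest to the highest tumour ITGB3 spanned 9.0-fold and ITGB5 3.31-fold, against 1.73-fold for ITGB1. Without OCA replicate 6, the highest tumour for ITGB3, its span was 4.98-fold.

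Ratios between known partners within a tumour do not depend on the scaling of libraries. Per effective base, ITGA3 stood at 0.706 to 1.02 times ITGB1 in vehicle tumours (median 0.841) and at 0.761 to 1.22 times in OCA tumours (median 0.881). Its log2 ratio to ITGB1 was 0.14 higher with OCA (-0.12 ± 0.24, n = 6, against -0.26 ± 0.16, n = 7, SD), with an exact permutation p of 0.238 over 1716 splits. ITGA5 stood at a median of 0.276 times ITGB1 with vehicle and 0.288 times with OCA, and the log2 ratio differed by 0.10 (exact p = 0.456). ITGA2 stood at 0.13 and 0.12 times ITGB1, with a difference in mean log2 ratio of 0.07 (exact p = 0.698). For ITGA2 the medians and the means thus differ in sign.

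ITGAV was far below ITGB1, at medians of 0.0385 times with vehicle and 0.0414 times with OCA (difference of log2 ratios 0.08, exact p = 0.485). Its ratio to ITGB5 was 0.313 to 0.878 with vehicle and 0.394 to 0.576 with OCA, and differed by 0.03 on the log2 scale (exact p = 0.899). Its ratio to ITGB3 ran from 0.980 to 4.18 with vehicle and from 0.572 to 3.92 with OCA, and differed by -0.10 (exact p = 0.839). After adjustment over these 6 ratios, each exact p was 0.899. No difference in the balance of partners was therefore found beyond the spread between tumours. Within the lower label series the differences for ITGA2, ITGA3, ITGA5 and ITGAV over ITGB1 were -0.09, 0.04, -0.03 and -0.17, and within the upper series 0.20, 0.24, 0.20 and 0.31. For ITGAV over ITGB3 they were 0.60 and -1.09, and for ITGAV over ITGB5 -0.12 and 0.13. The unadjusted exact p within a series was 0.0667 or more. ITGAV over ITGB1 in the upper series had 0.0667, the smallest that this series allows (0.0286 in the lower). The 4 vehicle libraries of the upper series include the least deep ones, vehicle replicates 2, 3 and 5.

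Levels of several subunits varied together from tumour to tumour, and ITGB3 passed with none of them. Of 21 pairs, 20 had a positive Pearson r on the log2(CPM + 0.5) scale and 7 passed an adjusted permutation p of 0.05. ITGB1 and ITGB5 correlated most closely, at r = 0.87 over 13 libraries (rho 0.92, permutation p = 0.00012 and 3e-05, adjusted p = 0.00252 and 0.00063). Without the 2 tumours farthest from the median ITGB1, vehicle replicates 3 and 7, r was 0.79. It was 0.90 within vehicle and 0.78 within OCA tumours, 0.90 and 0.82 within the lower and upper label series, and 0.85 over the 10 libraries that did not stand apart. These 2 beta subunits do not pair with each other, and across 14709 other transcripts of at least 10 CPM, ITGB5 ranked 24 in likeness to ITGB1. Thus 0.156% of them had a higher r with ITGB1 than ITGB5 had, 1.25% a higher one than ITGA3 and 4.07% than ITGA5. For likeness to ITGB5, 3.89% were above ITGA3 and 5.65% above ITGA5. For likeness to ITGA5, 0.0272% were above ITGA3 and 2.22% above ITGA2. How many pairs of any transcripts would pass was not counted.

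ITGB1 and ITGA3, partners in the laminin receptor, correlated at r = 0.78 (rho 0.77, permutation p = 0.0016 and 0.00326, adjusted p = 0.0112 and 0.0133). Without vehicle replicates 3 and 7 r was 0.60, and it was 0.88 within vehicle and 0.59 within OCA tumours. Within the label series r was 0.77 and 0.79, and over the 10 libraries 0.78. Both pairs kept an adjusted permutation p under 0.05 with each library left out in turn. Without vehicle replicates 2, 3 and 5, ITGB1 and ITGB5 had r = 0.91 (adjusted permutation p = 0.00567) and ITGB1 and ITGA3 r = 0.77 (adjusted permutation p = 0.0713).

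ITGA3 and ITGA5, alpha chains that both pair with ITGB1, correlated at r = 0.87 over all 13 libraries (rho 0.81, permutation p = 0.00033 and 0.00135, adjusted p = 0.00346 and 0.0133), and without vehicle replicate 1 and OCA replicate 1 at 0.86. It was 0.78 within vehicle and 0.96 within OCA tumours, 0.84 and 0.94 within the label series, and 0.84 without vehicle replicates 2, 3 and 5 (adjusted permutation p = 0.0276). With each library left out in turn this pair passed in all 13 cases. Within the 7 libraries below the gap in ITGA5 r was 0.34, and within the 6 above it 0.26. ITGA3 ran from 1037 to 1516 CPM below the gap and from 1713 to 2174 CPM above it. Each side of the gap holds fewer libraries and a narrower range of ITGA5, and the split was chosen from these data. Over all 13 libraries ITGA5 also had r = 0.68 with ITGB1, 0.66 with ITGB5 and 0.66 with ITGA2 (adjusted permutation p = 0.0434, 0.0448 and 0.0448). These 3 calls passed in only 7, 3 and 5 of the 13 cases, and none of them without vehicle replicates 2, 3 and 5 (adjusted permutation p = 0.103, 0.216 and 0.216). Over the 10 libraries that did not stand apart, the pair with ITGA2 passed (adjusted permutation p = 0.0274) and those with ITGB1 and ITGB5 did not (0.119 for both). Below and above the gap, ITGA5 had r = -0.03 and 0.24 with ITGB1, 0.15 and -0.07 with ITGB5, and 0.52 and 0.42 with ITGA2.

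ITGB5 and ITGA3 were the remaining pair that passed, at r = 0.71 (rho 0.69, adjusted permutation p = 0.0405 and 0.0322), with r = 0.95 within vehicle and 0.20 within OCA tumours. It passed in 6 of 13 cases with a library left out (adjusted permutation p up to 0.104), and was lost without vehicle replicate 2, 3, 6 or 7 or OCA replicate 2, 3 or 4. Nor did it pass over the 10 libraries (0.0638) or without vehicle replicates 2, 3 and 5 (0.14). ITGAV missed the adjusted threshold for r with ITGB1 and with its own partner ITGB5, at r = 0.62 and 0.63 (adjusted permutation p = 0.0514 for both), while rho was 0.76 and 0.79 (adjusted permutation p = 0.0133 for both). On the log2(TPM + 0.5) scale both pairs passed, at r = 0.67 and 0.63 (adjusted permutation p = 0.0356 and 0.0494). With its other partner, ITGB3, ITGAV had r = 0.10 (rho 0.06, adjusted permutation p = 0.792). ITGB3 had r between -0.12 and 0.36 with the other 6 subunits, and ITGA2 had r = 0.19 with ITGB1. 

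**Figure D4:**
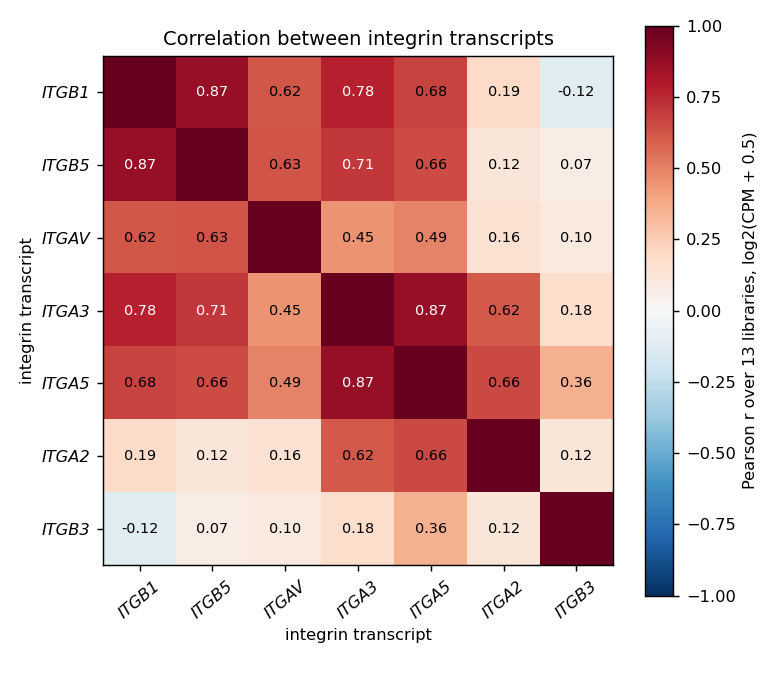
Pearson r between the 7 integrin transcripts over 13 libraries, on the log2(CPM + 0.5) scale, from -1 (blue) to 1 (red). ITGB1 with ITGB5 and ITGA3 with ITGA5 both reach 0.87, and the ITGB3 row stays at 0.36 or below.

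**Figure D5:**
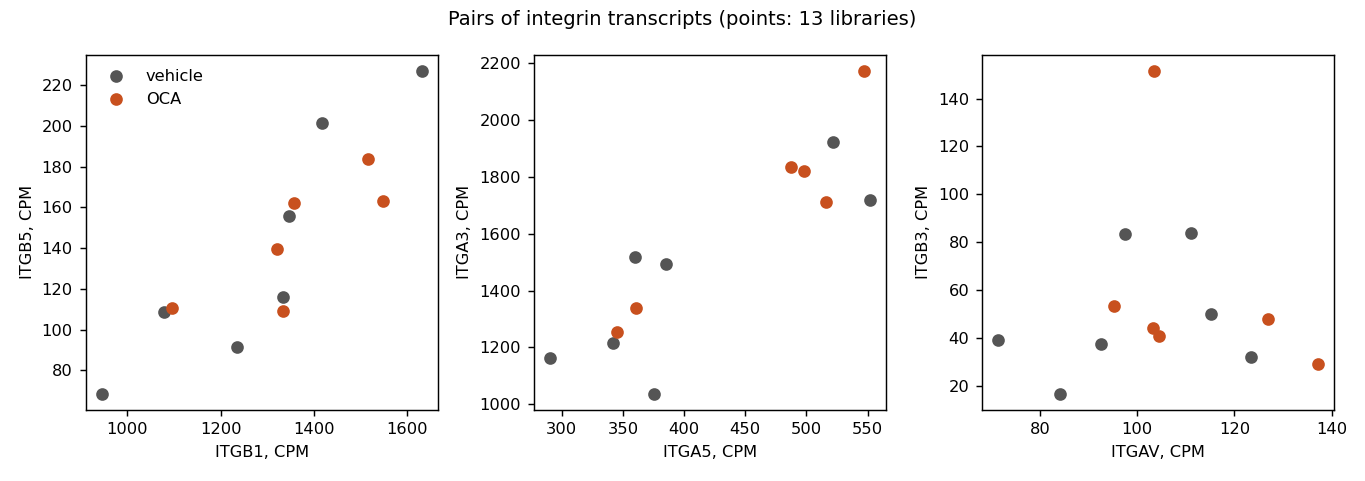
CPM of 3 pairs of integrin transcripts, with a point for each of 13 libraries (7 vehicle, 6 OCA). ITGB5 follows ITGB1, and ITGB3 shows no relation to ITGAV that passed the test. ITGA3 is higher in every tumour above the gap in ITGA5, between 385 and 488 CPM, than in those below it.

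The transcripts outside the 7 whose values followed ITGB1 most closely were ENST00000575659.6 and ENST00000596032.1, both at r = 0.94 over the 13 libraries among 14703 compared. Their log2 fold changes were 0.03 and 0.04, and no gene name is given for either ID in the files. They were picked as the highest of many, so their r is a description only.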

How the data were processed

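Bulk RNA of 13 tumours (7 vehicle, 6 OCA) was sequenced as paired reads of 150 bases where the RNA integrity number exceeded 6, per the labels' protocols. Salmon, STAR, FastQC and DESeq2, with no version, and GRCh38.p14 are listed by the submitters' processing notes. No source used here gives the transcript annotation. Each deposited file holds an estimated count of reads and a TPM value per transcript, beside its length and effective length in bases, per the file headers. Effective length was the same in all libraries. No human annotation was used, so coordinates, sequences, other adhesion genes and cell markers were not analysed here.

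The integrin transcripts and all lists were chosen with earlier results of these data known. Estimated counts were rounded, filtered by filterByExpr (minimum count 10, minimum total 15), TMM-scaled and tested on all transcripts with edgeR 4.0.16 in R 4.3.3, by the robust quasi-likelihood test, two-sided, with Benjamini-Hochberg adjustment over all transcripts and a threshold of 0.05. A standard error is the log2 fold change divided by the square root of F. The fit was tested on simulated data with planted changes larger than the fold changes of the 7 integrins. That test does not cover changes as small as theirs. Ratios used estimated reads plus 0.5 per effective base, with two-sided exact permutation tests. Correlations used 100000 permutations, two-sided, adjusted over 21 pairs. Named genes are the 7 and, by highest Pearson r, the 2 other transcripts of at least 10 CPM most like the most abundant of them. Depth is in the report, and its intervals cover the spread between libraries. DESeq2 1.42.0 and limma 3.58.1 (voom) served as alternatives, with other scalings and filters, the label series as a covariate, and libraries left out. Replicates are numbered in accession order. Labels give each library its own number, taken as separate animals.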

Additional observations from a re-analysis of the deposited data

Results flagged for a closer look

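The level of ITGB3 in OCA tumours held a value far from the others, with a gap above the 95% critical value of Dixon. OCA replicate 6 measured 151.6 CPM, and the next highest OCA tumour 53.4 CPM. The 26 tests covered the CPM of the 7 transcripts and the 6 log2 ratios in each group, of which chance alone would mark about 1.3. In the same tumour the other 6 integrins lay within the range of the remaining OCA tumours.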

How the results depend on the processing

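Of 175 fold changes (7 integrins under 25 alternatives), 169 kept their sign and all stayed above an adjusted p of 0.05, with 0.645 the lowest. ITGB3 turned to -0.023 without vehicle replicates 2, 3 and 5, and ITGB5 to -0.17. With each library left out, ITGB3 ranged from -0.18 to 0.50 and ITGB5 from -0.056 to 0.22. Without vehicle replicates 1 and 4 and OCA replicate 2, 1 integrin (ITGAV) had an unadjusted edgeR p under 0.05. The cause of these shifts was not tested.

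Over all transcripts, the 0 adjusted calls became 410 with unfiltered DESeq2 and 12 with filtered DESeq2, and were 1 without vehicle replicates 1 and 4 and OCA replicate 2, and 0 to 1 with each library left out (1 without vehicle replicate 7 and 1 without OCA replicate 6). The 2078 at an unadjusted p under 0.05 became 16150 without a low-count filter, where more transcripts were tested, 1019 with a mean of at least 5 CPM, where fewer were, 3707 with limma-voom, and 4977 and 3130 with DESeq2 without and after the filter. With each library left out they were 1585 to 2995. With limma-voom 2295 were higher and 1412 lower in OCA, against 1026 and 1052 with edgeR, and with library totals only 907 and 1182. Without vehicle replicates 2, 3 and 5 they were 1302 and 747.

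No ratio passed in any of 19 alternatives. Within the upper label series none could pass, since the smallest exact permutation p possible there is 0.0667. Within the lower series the smallest is 0.0286, and a single ratio at that value could not pass after adjustment over the 6. Without vehicle replicates 1 and 4 and OCA replicate 2, the log2 ratios of ITGA2 over ITGB1, ITGAV over ITGB3 and ITGAV over ITGB5 turned to -0.13, 0.029 and -0.13. Without vehicle replicates 2, 3 and 5, those of ITGA5 over ITGB1, ITGAV over ITGB1 and ITGAV over ITGB3 turned to -0.022, -0.055 and 0.14. Within the lower label series ITGA2, ITGA5 and ITGAV over ITGB1 turned to -0.089, -0.028 and -0.17, and ITGAV over ITGB3 and ITGB5 to 0.60 and -0.12. With each library left out, ITGA2 over ITGB1 ranged from -0.031 to 0.15, ITGAV over ITGB3 from -0.33 to 0.23, and ITGAV over ITGB5 from -0.069 to 0.18.

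The 7 correlated pairs became 9 on TPM and 9 by Spearman's rho, 4 over the 10 libraries and 2 without vehicle replicates 2, 3 and 5, in both cases with fewer libraries, and 3 to 9 with each library left out: 4 without vehicle replicate 2 or OCA replicate 2, and 3 without vehicle replicate 3 or 6 or OCA replicate 3 or 4. The pairs ITGB1 with ITGB5, ITGA5 with ITGA3 and ITGB1 with ITGA3 passed in all 13 of these. Leaving out libraries from a correlation, singly or these 3, was chosen after seeing the data. Without vehicle replicates 2, 3 and 5, r turned to -0.14 for ITGB3 with ITGB5, -0.55 for ITGB3 with ITGAV, -0.083 for ITGB5 with ITGA2 and -0.19 for ITGAV with ITGA2. With each library left out, r ranged from -0.047 to 0.34 for ITGB3 with ITGB5, -0.13 to 0.26 for ITGB3 with ITGAV, -0.016 to 0.33 for ITGB3 with ITGA2, -0.036 to 0.32 for ITGB5 with ITGA2 and -0.22 to 0.11 for ITGB1 with ITGB3. No paired analysis was possible because replicate numbers only follow accession order.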
